A study of Mus musculus with 3 samples.

Results

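The complement components described here were 9 of the 32285 genes counted in the 3 libraries: the C1q chain genes *C1qa*, *C1qb* and *C1qc*, the C1 protease genes *C1ra* and *C1s1*, and *C2*, *C3*, *C4b* and *Cfb*. They were chosen by name, by their place in the classical and alternative pathways, and each symbol was matched by its Ensembl ID. Their transcripts were followed by day and by the class of cell that held them.

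The libraries came from skin wounds on Days 3, 7 and 14 after injury in C57BL/6J, an inbred mouse strain, with 1 library of dissociated cells per day. Per the study's methods the mice were male and 7 to 12 weeks old, no allele or agent is named for them, and cells of several dorsal full-thickness excisional wounds were pooled for each library. The series' own design text names an incisional injury. In the methods, incisional wounds were made only in newborn pups and taken before Day 3, which places these libraries with the excisional wounds. The Day 3, Day 7 and Day 14 libraries held 38133650, 120940799 and 112713257 UMIs (unique molecular identifiers, 1 for each transcript captured) in 5158, 22924 and 16611 barcodes, of which 4360, 19590 and 13510 were kept as single cells. With 1 library per day there was no replicate of any day, so no test was possible and each difference between days compared 2 libraries.

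Complement is a cascade of secreted proteins that marks microbes and damaged cells. In the classical pathway, C1q, built from the A, B and C chains, binds its target and carries the proteases C1r and C1s, which cut C4 and C2 to form a convertase that cleaves C3. In the alternative pathway, factor B, encoded by *Cfb*, joins C3b to form the other C3 convertase. The liver makes most plasma complement, while C1q comes mainly from macrophages and related myeloid cells, and other components can be made locally by fibroblasts and by leukocytes.

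The genes lie on 3 chromosomes of the mouse genome (GRCm38, GENCODE vM21), and all are annotated as protein coding. *C1qa* (ENSMUSG00000036887, chr4:136895917-136898803), *C1qc* (ENSMUSG00000036896, chr4:136889804-136893065) and *C1qb* (ENSMUSG00000036905, chr4:136880129-136886187) stand side by side on the minus strand, with 2851 bases between *C1qa* and *C1qc* and 3616 between *C1qc* and *C1qb*. *C1ra* (ENSMUSG00000055172, plus strand, chr6:124512405-124523443) and *C1s1* (ENSMUSG00000038521, minus strand, chr6:124530345-124542359) are 6901 bases apart. *C2* (ENSMUSG00000024371, chr17:34862604-34898265), *Cfb* (ENSMUSG00000090231, chr17:34856374-34862518) and *C4b* (ENSMUSG00000073418, chr17:34728380-34743882) share the minus strand of chromosome 17, with 85 bases between *C2* and *Cfb*, and *C3* (ENSMUSG00000024164) lies on the same chromosome and strand at chr17:57203970-57228136. Reads came from transcript 3' ends, so they were checked for near-identical copies. In the last 500 bases, 20.2% of 90-base windows of *C4b* were shared with *C4a*, 11.2% of *C1ra* with *C1rb* and 2.68% of *C1s1* with *C1s2*, and the copies held few UMIs over all barcodes, 111 for *C4a* against 35882 for *C4b*, 56 for *C1rb* against 24140 for *C1ra*, and 224 for *C1s2* against 77460 for *C1s1*. The end of *Cfb* was shared in 90.8% of windows with the read-through gene *Gm20547*, which has no row in the files. *C1s1* and *C2* overlap genes of the other strand, *Gm16567* with 7 UMIs and *Zbtb12* with 1149.

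The promoters of *C1qb*, *C1qc*, *C1ra*, *C1s1* and *C3* are shown because these were the 5 members with an entry in the RefSeq table used, and they take in both cell sources described below. Each is 300 bases of RefSeq sequence (GRCm38.p6, 250 bases before to 50 after the start of transcription), read 5' to 3' on the gene's own strand, and capitals mark motif matches on either strand. *C1qb* is chr4:136886151-136886450 (minus), *C1qc* chr4:136892865-136893164 (minus), *C1ra* chr6:124512371-124512670 (plus), *C1s1* chr6:124542310-124542609 (minus) and *C3* chr17:57228087-57228386 (minus).
C1qb: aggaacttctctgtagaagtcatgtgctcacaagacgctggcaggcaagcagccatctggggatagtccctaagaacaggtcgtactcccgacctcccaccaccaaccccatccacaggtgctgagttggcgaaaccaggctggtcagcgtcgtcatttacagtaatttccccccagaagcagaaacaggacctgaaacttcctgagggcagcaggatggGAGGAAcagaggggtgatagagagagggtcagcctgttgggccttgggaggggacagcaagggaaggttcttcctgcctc
C1qc: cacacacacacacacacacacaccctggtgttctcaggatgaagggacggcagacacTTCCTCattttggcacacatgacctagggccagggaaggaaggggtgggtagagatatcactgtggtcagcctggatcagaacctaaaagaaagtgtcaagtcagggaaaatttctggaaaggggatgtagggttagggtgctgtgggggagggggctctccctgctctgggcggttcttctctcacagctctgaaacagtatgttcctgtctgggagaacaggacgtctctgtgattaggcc
C1ra: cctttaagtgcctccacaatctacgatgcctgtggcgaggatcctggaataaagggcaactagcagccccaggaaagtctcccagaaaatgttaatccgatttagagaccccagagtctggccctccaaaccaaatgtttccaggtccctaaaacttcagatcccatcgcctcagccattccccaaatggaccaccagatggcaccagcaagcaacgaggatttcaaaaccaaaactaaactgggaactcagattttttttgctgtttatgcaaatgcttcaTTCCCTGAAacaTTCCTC
C1s1: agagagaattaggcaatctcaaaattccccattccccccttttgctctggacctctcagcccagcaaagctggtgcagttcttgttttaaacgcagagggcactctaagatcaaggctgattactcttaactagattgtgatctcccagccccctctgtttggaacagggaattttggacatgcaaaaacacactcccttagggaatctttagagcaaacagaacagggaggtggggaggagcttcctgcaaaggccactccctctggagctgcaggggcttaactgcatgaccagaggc
C3: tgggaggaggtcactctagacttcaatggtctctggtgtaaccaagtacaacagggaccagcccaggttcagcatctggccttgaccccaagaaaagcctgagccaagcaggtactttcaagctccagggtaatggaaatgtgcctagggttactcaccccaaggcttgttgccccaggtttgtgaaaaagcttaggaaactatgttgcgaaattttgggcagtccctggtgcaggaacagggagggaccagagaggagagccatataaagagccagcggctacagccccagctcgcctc
GAGGAA, the core read by the myeloid factor PU.1, was found in *C1qb* (starting 30 bases before the start), *C1qc* (193 bases before, minus strand) and *C1ra* (45 bases after, minus strand), and in 28.3% of the 32851 RefSeq promoters. TTCNNNGAA, the STAT element, was found in *C1ra* (33 bases after the start) and in 8.30% of promoters. The interferon-stimulated response element, searched as GAAA, any 2 bases, then GAAA, was in none of the 5 and in 3.44% of promoters. The motifs do not overlap one another in these windows, both strands were searched, and a match is a description of the letters only.

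The classes of cells were set from marker genes that include no complement gene, and each is called by the class its markers point to. Macrophage-like cells numbered 2713, 9620 and 3237 on Days 3, 7 and 14, or 62.2%, 49.1% and 24% of kept cells, and fibroblast-like cells were 498, 6184 and 5684, or 11.4%, 31.6% and 42.1%. The summed level of the 9 macrophage markers was 9149 to 12793 CPM (counts scaled to the UMI total of the cells summed) in macrophage-like cells and 101 to 286 CPM in fibroblast-like cells, and none of the 9 was at 0 in the latter. The 8 fibroblast markers summed to 68247 to 130689 CPM in fibroblast-like cells and to 422, 3729 and 5398 CPM in macrophage-like cells. Different clusters made up each class from day to day. The macrophage-like class of Day 3 was mostly a cluster led by *Arg1* and *Chil3* (2087 cells), that of Day 7 was led by a *Cd36*, *Hmox1* and *Gpnmb* cluster (3420 cells) and that of Day 14 by a *Ccl8*, *Il10* and *Slamf7* cluster (1358 cells). The largest fibroblast-like clusters were one led by *Cxcl5* and *Saa3* on Day 3 (228 cells), one led by *H19* and *Prg4* on Day 7 (1767 cells) and one led by *Mgp*, *Cilp* and *Eln* on Day 14 (3449 cells). A further cluster of 1449 cells on Day 14, led by *Gal*, *Ppp1r14a* and *Tnmd*, had all 8 fibroblast markers but a pericyte marker among its leading genes, and it stayed unnamed. Libraries shared 43 barcodes between Days 3 and 7, 19 between Days 3 and 14 and 111 between Days 7 and 14.

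The 9 components divided into 2 sets by the cells that held them. The 3 C1q chain genes were found almost wholly in macrophage-like cells, and the other 6 mainly in fibroblast-like cells, in all 3 libraries. For each of the 9, over 50% of the UMIs of every library lay in 1 class. Fibroblast-like cells held 55.6%, 63.6% and 59.2% of all UMIs of kept cells on Days 3, 7 and 14. A gene spread evenly over the UMIs would thus pass the 50% line too, and the fibroblast-like shares given below are to be read beside these values. Against the 2-fold line used throughout, at least 10 CPM in 1 of the groups compared, 3 of 9 members were higher in macrophage-like than in fibroblast-like cells on each day, beside 23.4%, 21.7% and 23.6% of all genes tested on Days 3, 7 and 14. In the other direction, 6 of 9 members were higher in fibroblast-like cells on Days 3 and 7 and 5 of 9 on Day 14, beside 27.8%, 21.4% and 21.6% of all genes. The median log2 ratio over all genes tested was -0.09, 0.07 and 0.13 in the same order. Some members reached 10 CPM, and so entered these counts, through the class where they were high alone. On Day 3 these were the 3 C1q chains, *C1ra*, *C1s1* and *C2*. On Days 7 and 14 they were *C1ra* and *C2*, with *C1qc* on Day 14 as well.

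**Figure D1:**
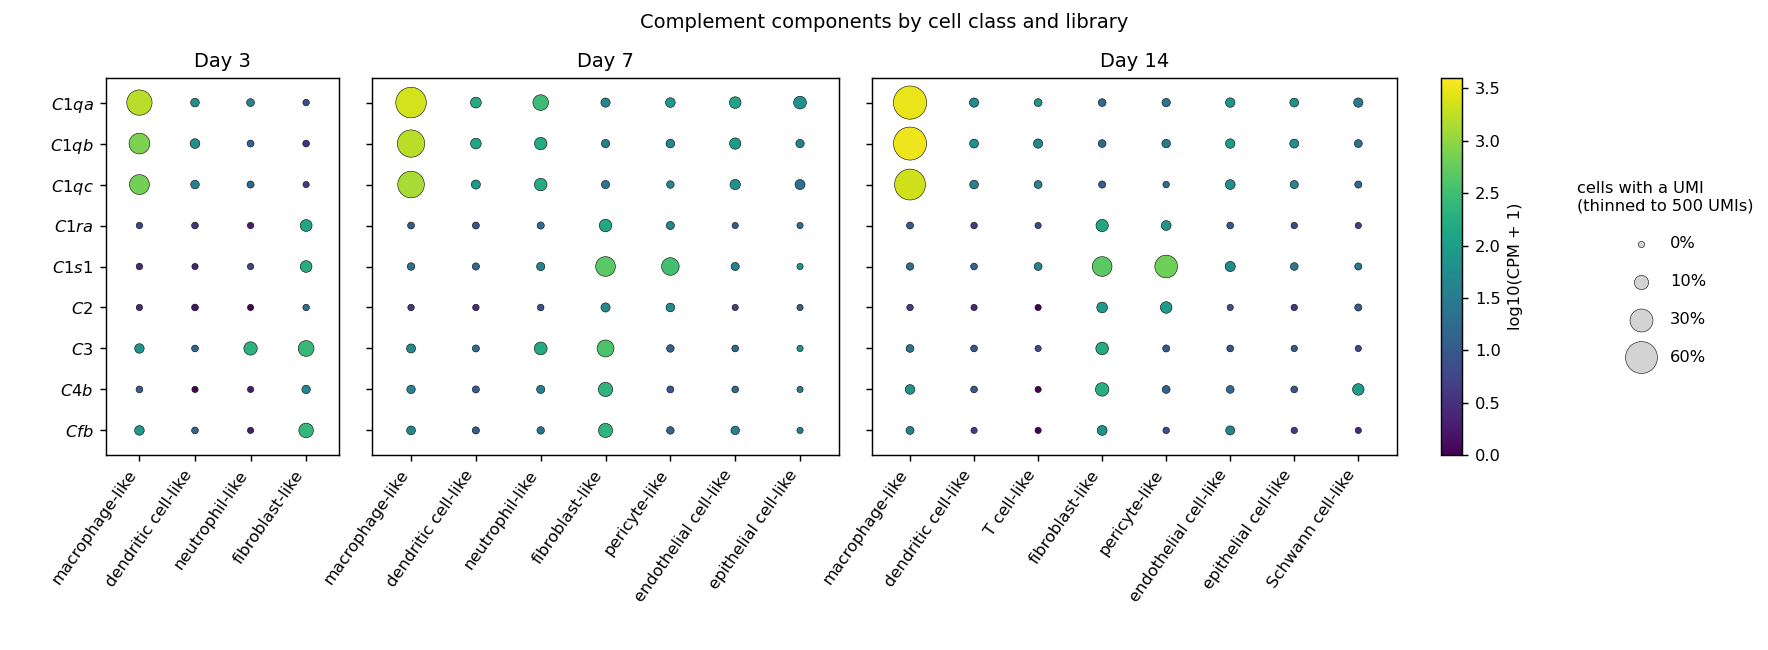
Level of each component (rows) in each class of at least 50 cells (columns) in the Day 3, Day 7 and Day 14 libraries, where colour gives log10(CPM + 1) and dot area rises with the percent of cells with a UMI after thinning every cell to 500 UMIs. The C1q chains fill large dots in macrophage-like cells (36.9%, 54.8% and 65.3% of cells for *C1qa*), while *C1s1* and *C3* are largest in fibroblast-like cells and, for *C1s1* on Day 14, in pericyte-like cells.

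*C1qa*, which encodes the A chain, had 1644 CPM (95% interval 1621 to 1667), 2248 CPM (2230 to 2266) and 3043 CPM (3013 to 3074) in the macrophage-like cells of Days 3, 7 and 14. This interval and all that follow are at 95% and reflect the error of counting alone (exact Poisson for CPM, Clopper-Pearson for shares). In fibroblast-like cells *C1qa* had 5.59, 42.4 and 15.9 CPM, so macrophage-like cells were 294-fold, 53.0-fold and 192-fold higher. With called doublets left in, the log2 ratio was 4.24 in place of 5.73 on Day 7 and 5.37 in place of 7.58 on Day 14. *C1qb*, the B chain gene, had 787, 1646 and 3209 CPM in macrophage-like and 2.23, 31.4 and 15.7 CPM in fibroblast-like cells. *C1qc*, the C chain gene, had 680, 1362 and 2192 CPM against 2.80, 25 and 9.61 CPM. Each chain was thus highest in the macrophage-like cells of Day 14 and lowest in those of Day 3, with intervals that did not overlap between days.

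Macrophage-like cells held 98.7% of the *C1qa* UMIs of Day 3 (98.5 to 98.8%), 93.5% of Day 7 (93.3 to 93.7%) and 95% of Day 14 (94.7 to 95.2%), and the shares of *C1qb* and *C1qc* were between 93.5% and 98.4%. After thinning to 500 UMIs, *C1qa* was seen in 36.9%, 54.8% and 65.3% of macrophage-like cells (54.6%, 78.6% and 82.1% without thinning). In fibroblast-like cells, taken as the class to compare since they are not a usual source of C1q, 0.201%, 2.80% and 1.30% of thinned cells were positive, and the median depth was 38070, 10100 and 10157 UMIs against 4047, 2537 and 3518 UMIs in macrophage-like cells. Epithelial-like cells showed *C1qa* in 2.40% of thinned cells on Day 14, at a median of 5734 UMIs. The C1q level of fibroblast-like cells was the lowest or next to lowest of the classes with at least 50 cells in every library, and the part of free RNA in it was not tested.

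Dendritic cell-like cells had 54.9, 151 and 52.1 CPM of *C1qa*, below the macrophage-like cells of the same library with no overlap of intervals. Per 1000 UMIs of the macrophage markers, which dendritic cells also express in part, they held 31.7, 90.3 and 17.1 *C1qa* UMIs against 180, 209 and 238 in macrophage-like cells. Neutrophil-like cells had 35.7 CPM on Day 3 and 286 CPM on Day 7, with 12.6% of thinned Day 7 cells positive at a median of 710 UMIs. On Day 14 the endothelial (76.4 CPM), T cell (70.2), epithelial (68.4) and dendritic cell-like (52.1) classes formed a run of neighbours whose intervals overlapped.

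The 3 chains did not keep the same proportions. Of all C1q UMIs in macrophage-like cells, *C1qa* made up 52.9%, 42.8% and 36% on Days 3, 7 and 14, *C1qb* 25.3%, 31.3% and 38.0%, and *C1qc* 21.9%, 25.9% and 26.0%. These are shares of captured transcript ends, with 1 UMI per transcript whatever its length, and capture may differ between the genes, so the change between libraries and not the level of one chain against another is described. Summed over the 3 genes, C1q had 3111, 5255 and 8445 CPM. The few C1q UMIs of fibroblast-like cells had nearly the *C1qa* share of their own library, 52.7%, 42.9% and 38.6%.

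Between libraries, macrophage-like *C1qb* was 1.07 log2 units higher on Day 7 than on Day 3 (1.03 to 1.10) and 0.96 higher on Day 14 than on Day 7 (0.94 to 0.98). *C1qc* differed by 1.00 and 0.69 and *C1qa* by 0.45 and 0.44. From Day 7 to Day 14 *C1qb* was higher in all 7 macrophage-like clusters with at least 100 cells in both libraries, by 0.29 to 1.25 log2 units, while *C1qa* differed by -0.39 to 0.82. From Day 3 to Day 7, with 4 such clusters, *C1qb* was lower by 0.16 in the *Arg1* and *Chil3* cluster and higher by 0.41 to 0.78 in the others. The class ratio from Day 3 to Day 7 was larger than that of any cluster, and the clusters that made up the class differed between the 2 libraries, as given above.

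Within the macrophage-like class the level of C1q varied by cluster. A cluster led by *Cd163*, *Folr2* and *Stab1*, genes of tissue-resident macrophages, had the highest *C1qa*, with 3583, 3644 and 4310 CPM on Days 3, 7 and 14. The *Ccl8*, *Il10* and *Slamf7* cluster was close, with 3059 CPM on Day 7 and 4054 on Day 14. The lowest was a cluster led by *Retnla* and *Lyz1*, with 799.6 CPM on Day 7 and 1100.1 on Day 14, and the *Arg1* and *Chil3* cluster was low as well, with 1405 on Day 3 and 1026 on Day 7. Highest and lowest clusters differed 2.55-fold, 4.56-fold and 3.92-fold on Days 3, 7 and 14.

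**Figure D2:**
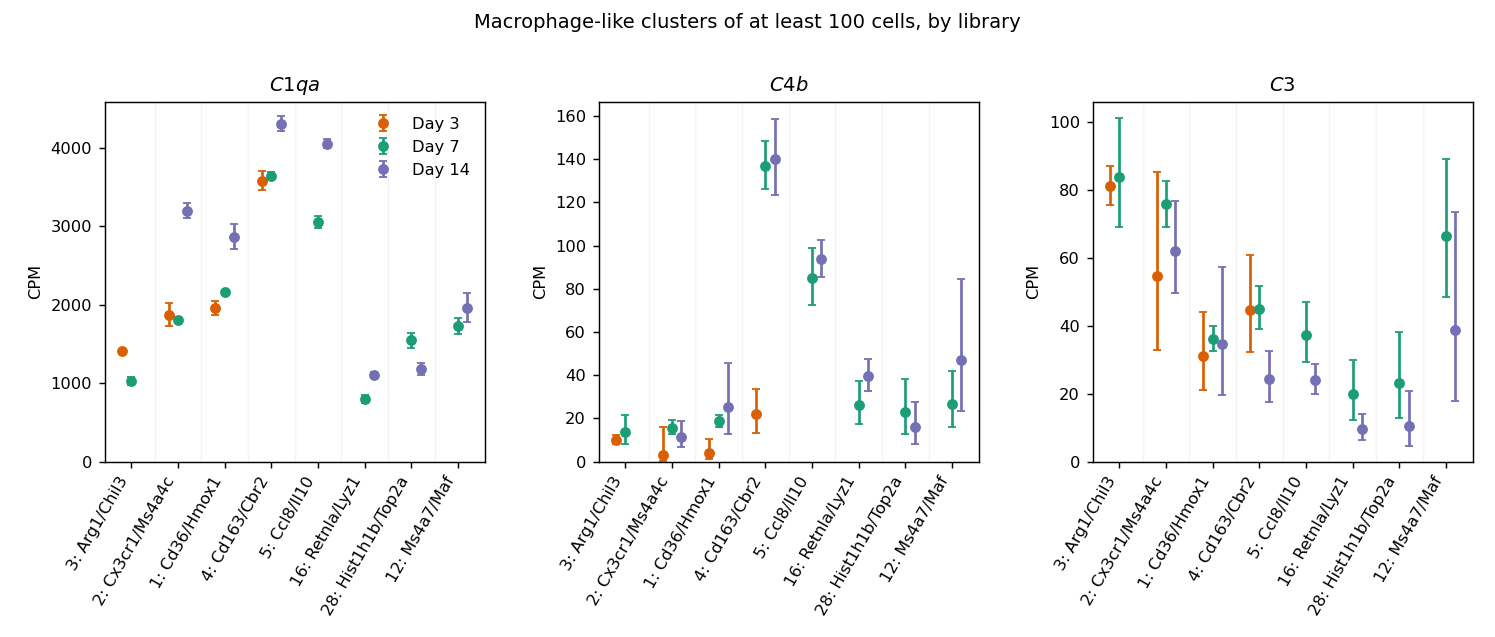
CPM of *C1qa*, *C4b* and *C3* in the macrophage-like clusters with at least 100 cells in a library, named by number and leading genes, with points coloured by library and bars for 95% Poisson intervals. *C1qa* and *C4b* peak in the *Cd163* cluster (4310 and 140 CPM on Day 14), while *C3* is highest in the *Arg1* and *Chil3* cluster on Days 3 and 7 (81.1 and 83.8 CPM) and in the *Cx3cr1* and *Ccr2* cluster on Day 14 (62.0 CPM).

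The C1 proteases and C2 were found in fibroblast-like and pericyte-like cells. *C1s1*, which encodes the protease that cuts C4 and C2, had 174, 476 and 470 CPM in fibroblast-like cells on Days 3, 7 and 14 and 1.65, 21 and 19.1 CPM in macrophage-like cells. *C1ra*, whose product activates C1s, had 128, 137 and 136 CPM against 4.79, 8.89 and 9.29. *C2*, the serine protease of the classical C3 convertase, had 20.7, 51.7 and 83.9 CPM against 1.49, 2.91 and 3.31. Fibroblast-like cells were therefore 105-fold, 22.7-fold and 24.6-fold higher for *C1s1*, 26.8-fold, 15.4-fold and 14.6-fold higher for *C1ra*, and 13.9-fold, 17.7-fold and 25.3-fold higher for *C2*. In macrophage-like cells of Day 7 *C1s1* and *C1ra* were below their levels in neutrophil-like cells (40.5 and 18.3 CPM), where *C2* had 9 UMIs (6.87 CPM, 3.14 to 13) and was not separable from macrophage-like cells, and the part of free RNA in these low levels was not tested.

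Fibroblast-like cells held 98.4%, 96.1% and 87.6% of the *C1s1* UMIs of Days 3, 7 and 14, with 97.2%, 95.7% and 86.8% for *C1ra* and 95.2%, 95% and 87% for *C2*. The unnamed *Gal* and *Tnmd* cluster held 6.67%, 9.40% and 7.36% of these UMIs on Day 14, at 154, 63.2 and 30.4 CPM for *C1s1*, *C1ra* and *C2*. Thinned to 500 UMIs, *C1s1* was seen in 6.02%, 21.4% and 21.5% of fibroblast-like cells (73.1%, 86.2% and 89.5% without thinning). In dendritic cell-like cells, which should lack it, 0.764% of thinned cells had a UMI on Day 7 and 0.411% on Day 14, with medians of 3092 and 4598 UMIs per cell.

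Pericyte-like cells, the cells that wrap small vessels, had *C1s1* at 337 CPM on Day 7 (304 to 372, 181 cells) and at 632 CPM on Day 14 (595 to 671, 429 cells). The order of the classes thus turned: on Day 7 fibroblast-like cells were higher, with 476 CPM (471 to 482), and on Day 14 pericyte-like cells were higher than the 470 CPM (464 to 476) of fibroblast-like cells, and neither pair of intervals overlapped. The thinned shares of *C1s1* in pericyte-like cells were 16.6% and 29.1%. *C2* did not separate these classes beyond the intervals on either day, with 49.4 CPM in pericyte-like cells on Day 7 (37.3 to 64.1) and 92.1 on Day 14 (78.4 to 108). *C1ra* was lower in pericyte-like cells, with 46.7 and 74.2 CPM, and *C3* (12.3 and 9.27), *C4b* (8.81 and 12.2) and *Cfb* (14.1 and 5.79) were within the overlapping run of the lowest classes.

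*C3*, the central component cleaved by both pathways, had 254 CPM (247 to 261), 381 CPM (376 to 386) and 160 CPM (156 to 163) in the fibroblast-like cells of Days 3, 7 and 14. Macrophage-like cells had 72.9, 49.2 and 25 CPM, which placed fibroblast-like cells 3.48-fold, 7.74-fold and 6.39-fold higher. Neutrophil-like cells came between, with 202 CPM on Day 3 (177 to 229, 237 UMIs) and 160 on Day 7 (139 to 184, 210 UMIs). On Day 3 these 3 classes were above dendritic cell-like cells, the only other class with at least 50 cells, and on Day 7 the 53 epithelial-like cells (61.6 CPM) overlapped with macrophage-like cells.

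*C3* in neutrophil-like cells was set beside the marker genes of the other classes. Neutrophil-like cells held 242 *C3* UMIs per 1000 fibroblast marker UMIs on Day 3 and 15.6 on Day 7, against 3.72 and 3.31 in fibroblast-like cells, and 30.7 and 34.8 per 1000 macrophage marker UMIs, and the part of free RNA in these counts was not tested. After thinning, 8.50% of neutrophil-like cells had a *C3* UMI on Day 3 and 7.63% on Day 7, with medians of 1224 and 710 UMIs per cell. In dendritic cell-like cells 0.426% and 0.669% did, at 7189 and 3092 UMIs per cell, and in fibroblast-like cells 12.9% and 15.3%. Both neutrophil-like clusters held *C3*, one at 312 CPM on Day 3 and 166 on Day 7 and the other at 192 on Day 3. Neutrophil-like cells held 3.92% of the Day 3 *C3* UMIs (3.44 to 4.44%), where fibroblast-like cells held 81.0% and macrophage-like cells 14.6%.

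Macrophage-like cells held 173, 13.2 and 4.62 *C3* UMIs per 1000 fibroblast marker UMIs on Days 3, 7 and 14, against 3.72, 3.31 and 1.22 in fibroblast-like cells. Its macrophage-like level was highest in the *Arg1* and *Chil3* cluster, with 81.1 CPM on Day 3 and 83.8 on Day 7 (68.9 to 101), though a cluster led by *Cx3cr1* and *Ccr2* overlapped it on Day 7, with 75.6 (69.1 to 82.6), and was highest on Day 14, with 62.0. It was lowest in the *Retnla* and *Lyz1* cluster, with 19.7 on Day 7 and 9.64 on Day 14. This was not the order of *C1qa*, which peaked in the *Cd163* cluster, where *C3* had 44.7, 44.9 and 24.3 CPM.

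*Cfb*, like *C3*, was highest in fibroblast-like cells in every library. It had 253 CPM (246 to 260), 220 CPM (217 to 224) and 71.2 CPM (69.1 to 73.5) in fibroblast-like cells in the same order, and 78.7, 46.6 and 37.5 CPM in macrophage-like cells. Fibroblast-like cells were 3.21-fold and 4.73-fold higher on Days 3 and 7 and 1.90-fold higher on Day 14, short of the 2-fold line and the only one of the 6 to be so. Per 1000 fibroblast marker UMIs, macrophage-like cells held 187, 12.5 and 6.94 *Cfb* UMIs against 3.70, 1.92 and 0.55 in fibroblast-like cells. The *Cd163* cluster had the highest macrophage-like *Cfb*, with 107, 112 and 63.0 CPM, and the *Cd36* and *Hmox1* cluster the lowest on Days 3 and 7, with 15 and 19.97 CPM. Unlike *C3*, *Cfb* was near 0 in neutrophil-like cells of Day 3, with 1 UMI (0.850 CPM, 0.0215 to 4.74). Endothelial cell-like cells had 37.7 CPM on Day 7 and 40.8 on Day 14, and their intervals overlapped those of macrophage-like cells.

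*C4b*, whose product is cut by C1s, had 46.7 CPM (43.7 to 49.8), 221 CPM (218 to 225) and 181 CPM (177 to 184) in the fibroblast-like cells of Days 3, 7 and 14. In macrophage-like cells it had 10.2 CPM (8.52 to 12.2), 42.4 (39.9 to 44.9) and 70.4 (65.9 to 75.3). Fibroblast-like cells were 4.56-fold, 5.22-fold and 2.56-fold higher, and they held 87.8%, 91.3% and 76.1% of the *C4b* UMIs. The unnamed *Gal* and *Tnmd* cluster held 16.1% of Day 14 (15.5 to 16.7%), at 164 CPM, close to the level of the fibroblast-like class.

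Macrophage-like *C4b* was highest in 2 clusters on Days 7 and 14. The *Cd163* cluster had 21.8, 137 and 140 CPM on Days 3, 7 and 14, and the *Ccl8* and *Il10* cluster had 85.0 on Day 7 and 93.7 on Day 14. The lowest was the *Arg1* and *Chil3* cluster on Day 7, with 13.7 CPM, and the *Cx3cr1* and *Ccr2* cluster on Day 14, with 11.4 CPM, so highest and lowest differed 9.98-fold and 12.3-fold. These lowest values rest on 18 and 16 UMIs, and on Day 7 the *Cx3cr1* and *Ccr2* cluster was close, with 15.6 CPM. On Day 3, with 124 *C4b* UMIs in the class, 97 lay in the *Arg1* and *Chil3* cluster and 20 in the *Cd163* cluster. The *Cd163* cluster also carried more fibroblast marker signal from day to day, 382, 3873 and 6476 CPM, and the part of that signal in its *C4b* level was not tested. Over the class, *C4b* per 1000 fibroblast marker UMIs was 24.3, 11.4 and 13 in macrophage-like cells and 0.68, 1.92 and 1.38 in fibroblast-like cells. Schwann cell-like cells of Day 14 had 96.1 CPM (72.7 to 124, 57 UMIs in 139 cells), the next level after fibroblast-like cells among the named classes and not separable from macrophage-like cells.

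**Figure D3:**
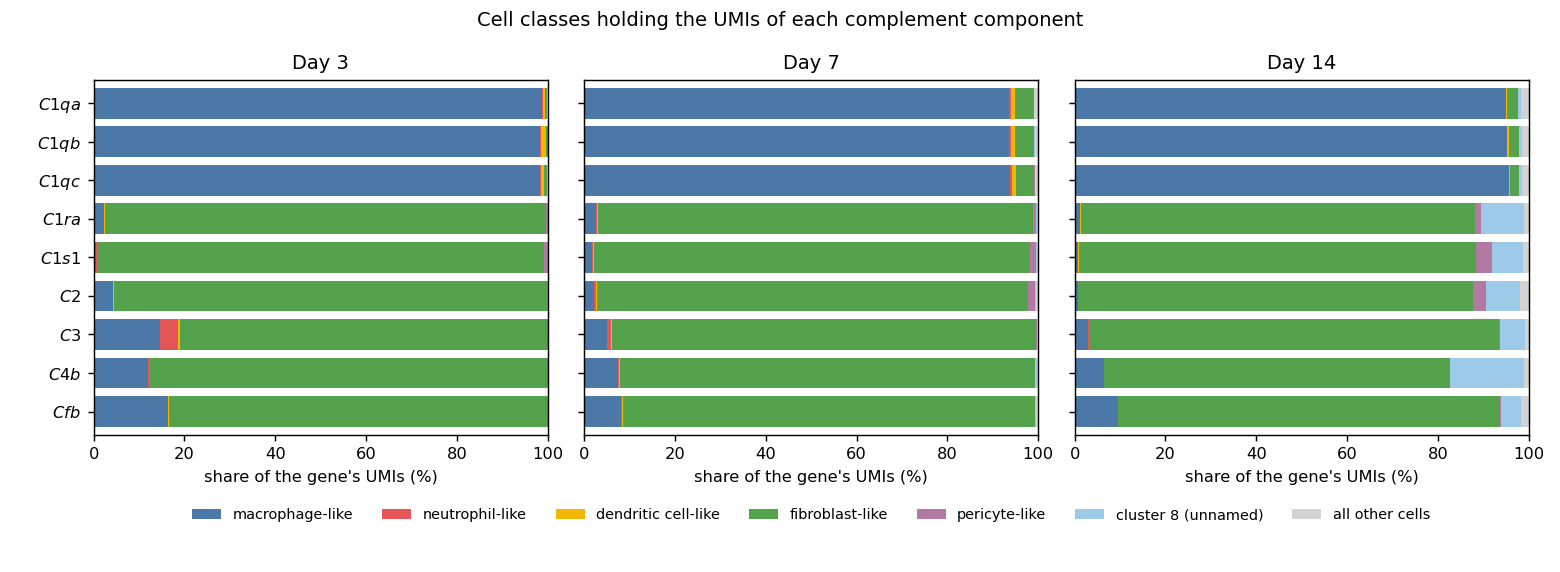
Percent of each component's UMIs (x axis) that lay in each class in the Day 3, Day 7 and Day 14 libraries, as stacked bars that sum to 100%. The C1q bars are nearly all macrophage-like (93.5% or more), the other 6 are mainly fibroblast-like (76.1% to 98.4%), and the unnamed cluster 8 takes 16.1% of *C4b* on Day 14.

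The days were compared next, since the study follows wound repair over time. In fibroblast-like cells, 6 of 9 members were over 2-fold higher on Day 7 than on Day 3, beside 4.96% of all genes, and 0 were lower by that much, beside 9.73%. *C4b* was higher by 2.25 log2 units (2.15 to 2.34), *C1s1* by 1.45 (1.4 to 1.5) and *C2* by 1.32 (1.17 to 1.48), where the median of all genes was -0.22. The other 3 were the C1q chains, higher by 2.92 to 3.82 from levels of 2.23 to 5.59 CPM. These were under 10 CPM on Day 3, so the chains entered the count through Day 7 alone. The macrophage marker sum of the class went from 101 to 286 CPM, and the part of that signal was not tested. *C3* was higher by 0.59, *C1ra* by 0.09, and *Cfb* differed by -0.20. Within the *Cxcl5* and *Saa3* cluster, with 228 cells on Day 3 and 515 on Day 7, *C3* differed by -1.29, *C1s1* by 0.34, *C2* by -0.13 and *C4b* by 0.08. In the cycling cluster led by *Ube2c* and *Top2a* these genes differed by -0.67, 0.70, 0.74 and 0.99. In the *Apod* and *Cavin1* cluster, with 117 and 362 cells and a median of 1168 UMIs per cell over the libraries, *C3* differed by -0.10. There *C1s1* differed by 2.64 (1.94 to 3.45, 17 UMIs on Day 3) and *C2* by 3.06 (1.11 to 6.15, 2 UMIs on Day 3). *C4b* went from 0 to 95 UMIs in this cluster. The class ratio of *C4b* was thus above that of 2 of its 3 clusters, and *C3*, higher in the class, was lower in 2 of them, with an interval that took in 0 in the third (-0.57 to 0.40). In the same order of clusters, *C1ra* differed by -0.80, -0.75 and -0.28 and *Cfb* by -0.59, -1.02 and -0.45. In the third, both intervals took in 0.

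From Day 7 to Day 14, 4 of 9 members were over 2-fold lower in fibroblast-like cells, beside 4.01% of all genes, and 0 were higher, beside 2.43%. *Cfb* differed by -1.63 log2 units (-1.68 to -1.58) and *C3* by -1.26 (-1.29 to -1.22), where the median of all genes was -0.14. *C1qa* (-1.41) and *C1qc* (-1.38) were the others, at 9.61 to 42.4 CPM, and with called doublets left in they came to -0.64 and -0.39. *C1qc* was under 10 CPM on Day 14 and entered the count through Day 7 alone. The macrophage marker sum of the class went from 286 to 164 CPM, and the part of that signal was not tested. *C1qa* kept its call in 10 of 11 alternatives and *C1qc* in 9 of 11. Over the class *C1s1* differed by -0.02, *C1ra* by -0.01, *C4b* by -0.29 and *C2* by 0.70. *Cfb* was lower on Day 14 in all 4 fibroblast-like clusters with at least 100 cells in both libraries, by 1.67 to 2.18 log2 units. *C3* was lower in all 4 as well, by 2.64 in the *Mgp* and *Cilp* cluster, 1.59 in one led by *Gdf10* and *Cxcl12*, 1.44 in one led by *Pi16* and *Cd55*, and 0.47 in one led by *Apod* and *Cavin1*. In the same clusters *C4b* differed by -1.17 to 0.64, *C1s1* by -0.59 to -0.13 and *C1ra* by -0.77 to 0.03, so *C1s1* was lower in 3 of the 4, while in the *Apod* cluster its interval took in 0 (-0.37 to 0.11), and the class ratio was near 0. *C2*, higher over the class, differed by -0.45 in the *Mgp* and *Cilp* cluster, -0.33 in the *Pi16* and *Cd55* cluster, 0.09 in the *Gdf10* cluster and 0.35 in the *Apod* cluster.

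In macrophage-like cells, 4 of the 7 members that could be compared were over 2-fold higher on Day 7 than on Day 3, beside 3.42% of all genes, and 0 lower, beside 5.41%. They were *C4b* (2.05 log2 units, 1.78 to 2.33), *C1qb*, *C1qc* and *C1s1*, the last at 1.65 and 21 CPM. With under 10 CPM on Day 3, *C1s1* entered through Day 7 alone. *C1ra* and *C2* had under 10 CPM on both days and did not enter. *C3* differed by -0.57 and *Cfb* by -0.76, where the median of all genes was -0.13. Within the clusters with at least 100 cells in both libraries, *C3* differed by 0.01 to 0.47, each with an interval that took in 0. There *Cfb* differed by -1.37 (-1.85 to -0.93) in the *Arg1* and *Chil3* cluster. In the others *Cfb* differed by -0.10 to 0.41, with intervals that took in 0. *C4b* was higher on Day 7 in the *Cd163* cluster, by 2.65 log2 units (2.01 to 3.37), and in the *Cd36* and *Hmox1* cluster, by 2.23 (0.85 to 4.12). In the other 2 clusters the intervals took in 0, with 0.44 (-0.37 to 1.18) in the *Arg1* and *Chil3* cluster and 2.45 (-0.07 to 7.76) in the *Cx3cr1* and *Ccr2* cluster, which had 1 UMI on Day 3. The fibroblast marker sum of the class went from 422 to 3729 CPM between these libraries, and the part of that signal in *C4b* and *C1s1* was not tested. From Day 7 to Day 14, 0 of the same 7 members passed the line in either direction, beside 2.95% of all genes higher and 3.78% lower, with *C1qb* (0.96) and *C3* (-0.98) just inside it.

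Over all kept cells, where fewer cells of a class and less RNA per cell cannot be told apart, *C1s1* went from 98.3 to 315 CPM, *C2* from 12.1 to 34.6 and *C4b* from 29.5 to 154 between Days 3 and 7. These were 3 members higher, beside 4.04% of all genes, with 0 lower, beside 8.08%. As the mean of each cell's CPM, the log2 ratios of *C1s1*, *C2* and *C4b* were 3.01, 2.71 and 3.28 in place of 1.68, 1.52 and 2.38. Between Days 7 and 14, *C3* went from 259 to 105 CPM and *Cfb* from 154 to 50.2, 2 members lower beside 6.1% of all genes, with 0 higher, beside 4.12%. *C1qa* had 581, 650 and 408 CPM over all kept cells and was lowest on Day 14, while *C1qb* (278.7, 476 and 429 CPM) and *C1qc* (241, 393 and 292 CPM) were lowest on Day 3. All 3 chains were lower on Day 14 than on Day 7 over all kept cells and higher within macrophage-like cells, as the macrophage-like share of UMIs was 34.9%, 27% and 12.7% on Days 3, 7 and 14.

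**Figure D4:**
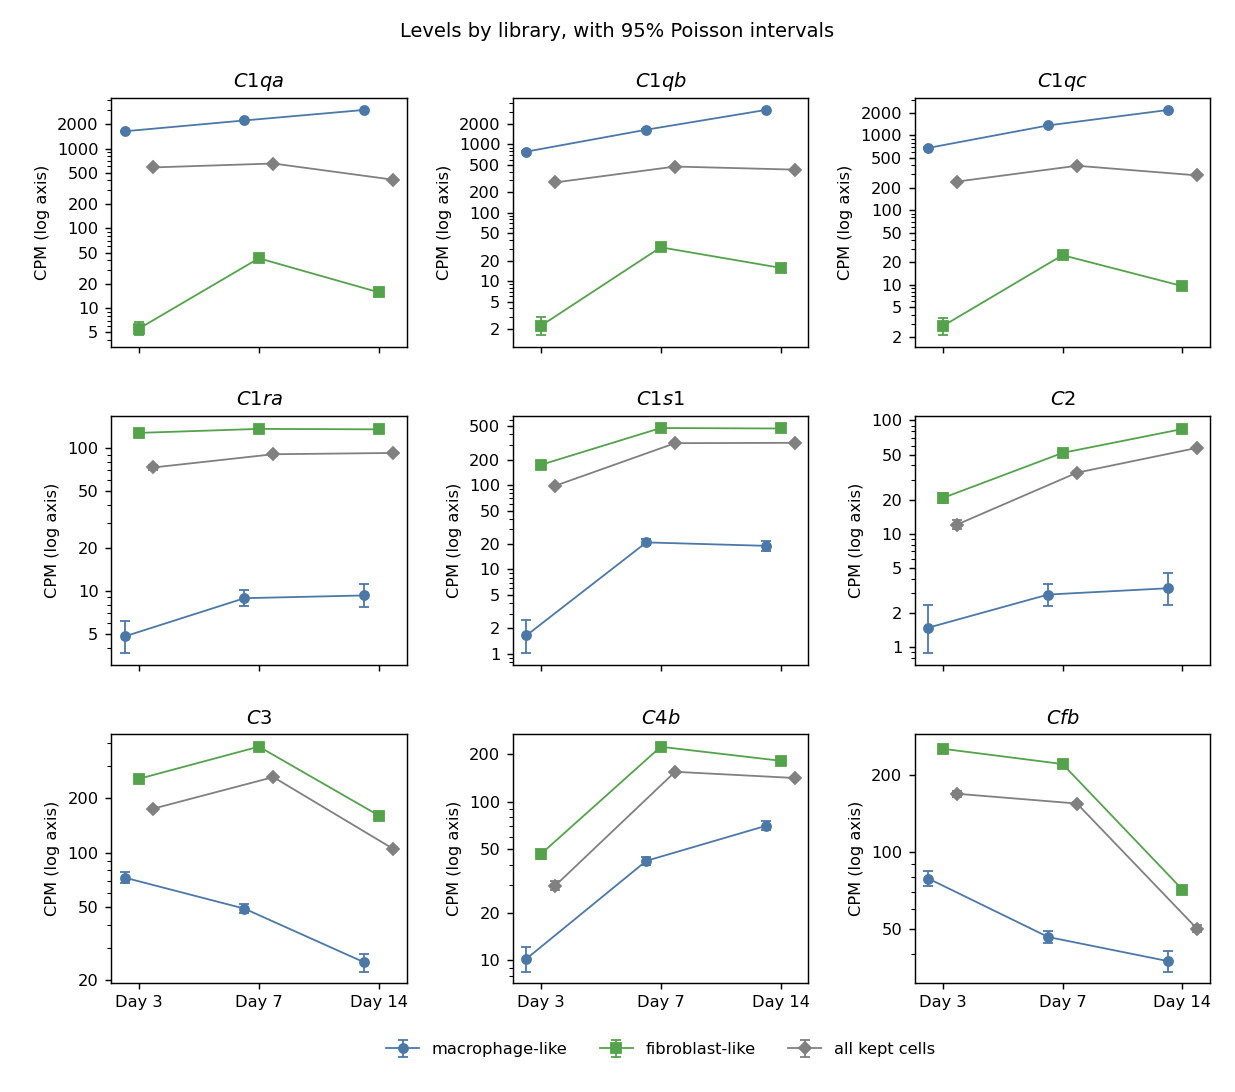
CPM on a log axis of each component in the Day 3, Day 7 and Day 14 libraries, in macrophage-like cells (circles), fibroblast-like cells (squares) and all kept cells (diamonds), with 95% Poisson intervals. The macrophage-like C1q lines go up over the 3 libraries (1644, 2248 and 3043 CPM for *C1qa*) while those over all kept cells are lower on Day 14 than on Day 7, and the fibroblast-like lines of *C3* and *Cfb* are lowest on Day 14 (160 and 71.2 CPM).

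On Days 7 and 14 the fibroblast-like clusters differed more in *C3* than in the other components that this class holds. On Day 7 a cluster led by *Akr1c18*, *Pi16* and *Cd55* had 1281 CPM (1239 to 1324) and a like one led by *Akr1c18*, *Pla1a* and *Pi16* had 1258, while the *H19* and *Prg4* cluster had 515, the *Mgp* and *Cilp* cluster 542, and a cluster led by *Tnc*, *Lrrc15* and the myofibroblast gene *Acta2* had 30.7 CPM. Highest and lowest were 41.8-fold apart on Day 7. On Day 14 the *Pi16* and *Cd55* cluster had 473 CPM, the *Mgp* and *Cilp* cluster 87.3 and a cluster led by *Col18a1* and *Ptn* 12.7, which were 37.1-fold apart. The *Pi16* and *Cd55* cluster, with 1098 of the 13510 kept cells, held 51.7% (50.7 to 52.6%) of all *C3* UMIs of Day 14. On Day 3 the *Cxcl5* and *Saa3* cluster was highest, with 350 CPM, and the cycling cluster lowest, with 142.

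*C4b* and *Cfb* were lowest in the same clusters as *C3* on Days 7 and 14. *C1ra* and *C1s1* had their lowest values there too, but on Day 7 the intervals overlapped those of the cycling cluster (59.1 and 206 CPM), and on Day 14 that of *C1s1* overlapped the *Apod* and *Cavin1* cluster (320 and 345 CPM). On Day 7 the *Acta2* cluster had 26.0 CPM of *C4b*, 52.0 of *C1ra*, 203 of *C1s1* and 51.5 of *Cfb*, and the clusters led by *Akr1c18* had 468 and 600, 252 and 284, 789 and 899, and 366 and 365 CPM. *Cfb* was also high in the *H19* and *Prg4* cluster, with 341 CPM. *C2* was also lowest in the *Acta2* cluster on Day 7, with 20.4 CPM beside 21.6 in the cycling cluster, but its highest clusters were different. On Day 7 it was highest in the *Mgp* and *Cilp* cluster (134 CPM) and the *Gdf10* and *Cxcl12* cluster (116 CPM), against 56.3 and 37.9 in the *Akr1c18* clusters. On Day 14 the *Gdf10* cluster had 123 and the *Pi16* and *Cd55* cluster 44.9. *C1s1* was the most even, with 4.42-fold between highest and lowest clusters on Day 7 and 1.79-fold on Day 14.

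**Figure D5:**
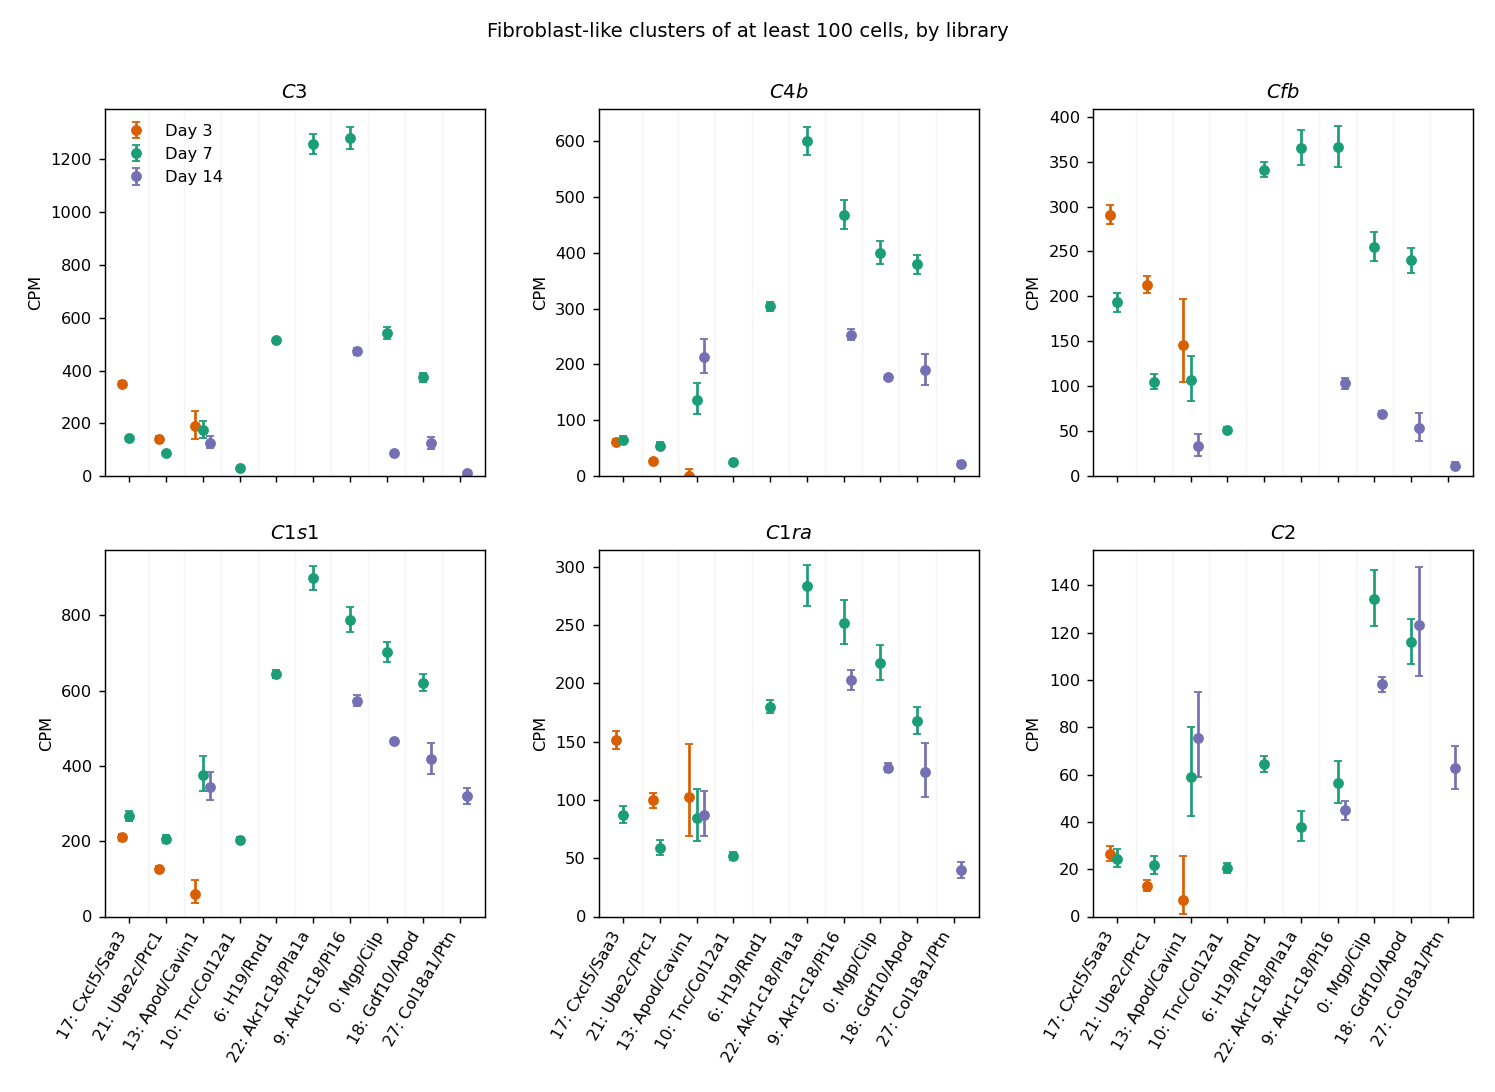
CPM of *C3*, *C4b*, *Cfb*, *C1s1*, *C1ra* and *C2* in the fibroblast-like clusters with at least 100 cells in a library, named by number and leading genes, with points coloured by library and bars for 95% Poisson intervals. The *Akr1c18* clusters are highest for *C3* on Day 7 (1281 and 1258 CPM) and the *Tnc* and *Acta2* cluster lowest (30.7 CPM), while *C2* peaks in the *Mgp* and *Gdf10* clusters (134 and 116 CPM).

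Over the 19 groups of 1 class in 1 library with at least 50 cells, the C1q chains had Pearson correlations of 0.98 to 0.99 with each other in log2(CPM + 1). *C1ra*, *C1s1* and *C2* had correlations of 0.89 among themselves. *C3* with *Cfb* had 0.61 and *C4b* with *Cfb* 0.63, while *C1qa* with *C1s1* had -0.46. The groups of 1 library share its free RNA and depth, and groups of 1 class share its cell type, so these values describe the pattern and carry no test. Among 6921 other genes with at least 50 CPM in 1 group, those most like *C1qa* were *Pf4* (0.98), *Ms4a7* (0.97), itself a macrophage marker used to name clusters, and *F13a1* (0.96). For *C3* they were *Saa3* (0.89), *Srxn1* (0.85) and *Prg4* (0.83), for *C4b* *Mir99ahg* (0.91), *Timp2* (0.87) and *Dnm1* (0.85), for *C1s1* *Nbl1*, *Pcolce* and *Meg3* (0.97 each), and for *Cfb* *Fn1* (0.90), *Man1a* (0.89) and *Man2a1* (0.87).

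Of 45 other complement genes on a set list, 25 reached 10 CPM in a class of at least 50 cells, and 2, *Mbl1* and *C8b*, had no UMI in a kept cell. By the class with the highest level, 8 of the 25 were fibroblast-like, 4 macrophage-like, 3 pericyte-like and 2 each neutrophil-like, dendritic, epithelial, endothelial and Schwann cell-like. The same count was not made over all genes, so these numbers describe the list only. Of the 18 or 19 listed genes that could be compared on a day, 10 were over 2-fold higher in macrophage-like cells on each day, beside 23.4%, 21.7% and 23.6% of all genes, and 7, 4 and 5 were higher in fibroblast-like cells on Days 3, 7 and 14, beside 27.8%, 21.4% and 21.6%. Some of these entered through 1 class alone, such as *Cd55* and *C3ar1*, which were under 10 CPM in the other class on each day. From Day 3 to Day 7, 2 of 10 listed genes were higher and 2 lower in fibroblast-like cells, beside 4.96% and 9.73% of all genes, and 4 of 16 were higher and 1 lower in macrophage-like cells, beside 3.42% and 5.41%. From Day 7 to Day 14, 2 of 11 were higher and 1 lower in fibroblast-like cells, beside 2.43% and 4.01%, and 0 of 16 passed the line in macrophage-like cells, beside 2.95% and 3.78%.

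The inhibitors *Serping1* and *Cd55* lay on the fibroblast-like side. *Serping1*, which encodes the C1 inhibitor, had 536, 955 and 1374 CPM in fibroblast-like cells on Days 3, 7 and 14 and 3.55, 25.1 and 37.7 in macrophage-like cells. *Cd55*, a membrane protein that breaks up convertases, had 54.2, 184 and 263 CPM in fibroblast-like cells and 0.909, 5.50 and 8.24 in macrophage-like cells.

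Receptors for cleavage fragments and properdin were on the myeloid side. *C3ar1*, the C3a receptor gene, had 700, 571 and 360 CPM in macrophage-like cells and 2.69, 9.43 and 1.94 in fibroblast-like cells. *Itgam*, a subunit of complement receptor 3, had 796, 381 and 233 CPM in macrophage-like cells, and it was the only listed gene over 2-fold lower there on Day 7 than on Day 3, of 16 compared, beside 5.41% of all genes. *C5ar1* was highest in neutrophil-like cells of Day 3, at 905 CPM. *Cfp*, which encodes properdin, the stabiliser of the alternative convertase, had 507, 341 and 358 CPM in macrophage-like cells and 616 in dendritic cell-like cells of Day 3.

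Among terminal components, *Hc*, the C5 gene, had 3.23 CPM in fibroblast-like cells on Day 7 and 29.1 on Day 14, and *C7* had 8.35 and 53.0. They were the 2 listed genes of 11 compared that were over 2-fold higher in fibroblast-like cells on Day 14 than on Day 7, by 3.17 and 2.67 log2 units, beside 2.43% of all genes. Both were under 10 CPM on Day 7 and entered through Day 14 alone. *Clu*, which blocks the membrane attack complex, was the 1 lower, by 2.38, beside 4.01% of all genes. From Day 3 to Day 7, 2 of 10 listed genes were higher in fibroblast-like cells (*Clu* and *Cd55*) and 2 lower (*C1rl* and *Calr*), beside 4.96% and 9.73% of all genes. In macrophage-like cells 4 of 16 were higher from Day 3 to Day 7 (*Fcna*, *Colec12*, *Serping1* and *Itgax*), beside 3.42% of all genes. *Colec12* and *Serping1* were over 2-fold higher in fibroblast-like than in macrophage-like cells on each day. *Serping1* was under 10 CPM in macrophage-like cells on Day 3. The fibroblast marker sum of the macrophage-like class went from 422 to 3729 CPM between these days, and the part of that signal was not tested. From Day 7 to Day 14 0 of 16 passed the line in either direction, beside 2.95% of all genes higher and 3.78% lower.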

How the data were processed

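Single-cell libraries (Chromium 3' v3.1) were deposited by the authors as tables of UMI counts by gene and barcode, made with Cell Ranger 6.0.0 on mm10 per the submitters' processing notes. The deposited counts were not normalised. Barcodes with at least 200 genes, 500 UMIs and at most 10% mitochondrial UMIs were kept, 4452, 21568 and 14472 on Days 3, 7 and 14. Simulated doublets were compared with the 50 nearest neighbours, and 92, 1978 and 962 cells were removed as doublets, 0.5 of the rate expected at 0.8% per 1000 barcodes. The study's limits for keeping cells were not found in its text. The 3 libraries were clustered together without alignment (leidenalg 0.10.2, resolution 1, 2000 variable genes, 30 components, 15 neighbours), leaving out 169 genes that include all complement genes, which gave 36 clusters. Clusters were named from marker lists, with at least 3 own markers in 10% of cells, and 5 stayed unnamed. The rule of scoring was changed once the clusters had been seen, the markers were not, and complement levels were computed later.

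UMIs were summed per class and library as CPM, and ratios had exact conditional binomial intervals at 95%, for counting error only, since PCR and capture error are not in them. Called meant at least 2-fold, for genes with 10 CPM in 1 group. With 1 library per day no test was run. Shares of cells were taken after thinning to 500 UMIs. Clusters entered with 100 cells in a library. On simulated Poisson counts with 200 changed genes, the intervals of macrophage-like over fibroblast-like cells on Day 7 (7479 genes) covered 97.5% of changed and 95.2% of unchanged genes. For fibroblast-like cells, Day 7 over Day 3, these were 97.0% and 95.0%, and for macrophage-like cells, Day 14 over Day 7, 96.0% and 95.4%. The counts were drawn from the model that the intervals assume, so this checks the calculation and not the spread between cells or libraries. The named genes were the 9 members and a list of 45 other complement genes, given where they reached 10 CPM, and 1 of them is counted but not reported here by name. The genes most like a member were the 3 with the highest correlation. The members and lists were chosen with earlier results of these data known. Alternatives were the removal of doublets, mitochondrial limits, the resolution, classes from each cell's own markers, the mean CPM per cell, the total without the 50 most abundant genes, no filter on low values, thinning to 1000 UMIs, and, added after seeing the data, the unnamed *Gal* cluster counted as fibroblast-like. Python 3.11.15, NumPy 2.4.6, SciPy 1.17.1 and pandas 2.3.3 were used. Symbols were matched for 32158 of 32285 IDs. Promoter entries were found for 5 of the 9 members (*C1qb*, *C1qc*, *C1ra*, *C1s1*, *C3*).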

Additional observations from a re-analysis of the deposited data

How the results depend on the processing

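Of 224 recomputed counts of components, 215 were within 1.5 times the reported count and no ratio changed sign past the 2-fold line, but 194 of 783 log2 ratios and 61 of 108 shares of cells moved beyond their counting interval, 47 of them under thinning to 1000 UMIs. The split of the 9 genes between macrophage-like and fibroblast-like cells kept every call in 11 of 11 alternatives on each day. The 9 counts that moved were these. Over all kept cells, averaging CPM over cells gave 1 component higher on Day 14 than on Day 7 (*C2*, none in the reported count) and 1 lower in place of 2, as *C3* came to -0.85. With doublets kept, 2 components in place of 4 were over 2-fold lower in fibroblast-like cells on Day 14 than on Day 7. In macrophage-like cells the count higher on Day 14 than on Day 7 went from 0 to 1 (*C1qb*) with doublets kept and on averaging CPM over cells, and the count lower went from 0 to 1 (*C3*) with the 5% mitochondrial limit, with classes from each cell's own markers and without the 50 most abundant genes. At resolution 0.5, 5 in place of 8 components differed at least 2-fold between fibroblast-like clusters of Day 3, and the cause was not tested. *C1qc* in macrophage-like cells, Day 7 over Day 3, was 0.96 with the 5% mitochondrial limit, and kept its call in 9 of 10 alternatives. No replicate could be left out with 1 library per day, and no paired analysis was possible because no day had a second library and no test was run. Some levels in small classes rest on few UMIs, such as 57 for *C4b* in the 139 Schwann cell-like cells.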
